A study of Mus musculus with 27 samples.

Results

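Iron handling genes were examined in mouse hepatocytes, the cells of the liver that store iron and secrete the hormone that controls its level in blood. The set held 10 genes, taken as the rows of the deposited table whose Ensembl identifier carries 1 of 10 symbols in the GENCODE M21 annotation: Hamp, Hamp2, Hfe, Tfr2, Tfrc, Trf, Fth1, Ftl1, Slc40a1 and Slc39a14. These were 10 of the 43346 genes in the table, and all 10 were among the 14482 genes with enough counts to be tested. RNA was sequenced from liver hepatocytes of female mice aged 12 weeks, with 3 libraries for each of 9 inbred strains (27 libraries), which the labels call biological replicates. PWK/PhJ, WSB/EiJ and CAST/EiJ descend from wild mice of different subspecies. The 6 laboratory strains were NZO/HlLtJ, whose mice become obese, NOD/ShiLtJ, whose mice are prone to autoimmune diabetes, A/J, C57BL/6J, DBA/2J and 129S1/SvImJ. No mouse carried an engineered allele or a treatment per the labels, and the labels used here give no diet or iron measurement.

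Hepcidin, the peptide made from Hamp, binds the iron exporter ferroportin (Slc40a1) and causes its removal from the cell surface, so less iron enters the blood. Hepatocytes raise Hamp transcription when BMP ligands and hemojuvelin signal through SMAD proteins, when transferrin loaded with iron is sensed through Hfe and Tfr2, and when interleukin 6 signals through Stat3. Iron in blood travels on transferrin (Trf), enters cells through the transferrin receptor (Tfrc) or the transporter Slc39a14, and is stored in ferritin shells of heavy (Fth1) and light (Ftl1) chains. Iron regulatory proteins set the translation of the ferritin mRNAs and the stability of the Tfrc mRNA.

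Library totals ran from 17015932 to 35078483 counts, so that 1 count was worth between 0.0253 and 0.0516 CPM. CPM here means the counts of a gene scaled to its library's total after TMM scaling, a correction for differences in composition between libraries. Pairs of libraries within a strain differed by more than sampling noise in all 27 pairs (chi-square per degree of freedom of at least 24.4). That shows only that none was a repeat of the same library. Each was counted as a sample because the labels call them biological replicates. Summed over 10 hepatocyte markers such as Alb and Apoa1, the level was between 106724 and 321032 CPM per library. The sums over 10 Kupffer cell markers (the macrophages of the liver) were between 35.04 and 442 CPM, over 10 liver endothelial markers between 62.6 and 799 CPM, over 10 stellate cell markers between 31.2 and 189.7 CPM, over 8 erythroid markers between 2.22 and 36.6 CPM and over 8 lymphocyte markers between 0.893 and 11.7 CPM. The erythroid gene Epb42 was at 0 in all libraries. Beside 74.2% of all genes tested, 8 of 10 hepatocyte, 10 of 10 Kupffer cell, 10 of 10 endothelial and 6 of 10 stellate cell markers differed between strains, as did 3 of 5 tested erythroid markers and the 1 lymphocyte marker tested. In these bulk libraries, fewer cells of a type and less RNA per cell cannot be told apart.

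All 10 genes differed between the 9 strains in edgeR's quasi-likelihood test (Benjamini-Hochberg adjusted p under 0.05), against 74.2% of all genes tested. Adjusted p ran from 1.57e-15 for Ftl1 to 0.0359 for Tfrc. The median log2 ratio of the highest to the lowest strain mean was 1.56 for the set and 1.16 for all genes tested. Of the 10 genes, 7 had strain means at least 2-fold apart and 4 had means at least 4-fold apart, and the corresponding shares of all genes tested were 57.8% and 28.5%. When each strain was set against the mean of the other 8, 46 of 90 combinations of gene and strain were called (26 higher, 20 lower), or 51.1%, against 24.1% of such combinations for all genes. Of the 46 calls, 21 held in every other fit run on the same rows: DESeq2, 2 other scalings, 2 other filters, a replicate block, marker covariates and leaving out each of the 27 libraries in turn. Most of the 21 were in Hamp, Hamp2 and Ftl1, and counting close copies together, described below, was not among these fits. Outside these 3 genes the calls kept were Trf in A/J, Slc40a1 in WSB/EiJ, Slc39a14 in WSB/EiJ and PWK/PhJ, and Fth1 in PWK/PhJ. The libraries of a strain were all above or all below the other 24 in 2 of the 90 combinations, or 2.22%, against 2.83% for all genes.

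Levels per length of the longest transcript put Trf first, at a mean of 9919 CPM per kilobase. Hamp2 followed at 3147, Hamp at 1563, Ftl1 at 1346, Fth1 at 370 and Tfr2 at 192.7 CPM per kilobase. Slc40a1 (49.3), Slc39a14 (44.8), Hfe (13.8) and Tfrc (5.18 CPM per kilobase) were far lower. These are means over all libraries, and that of Hamp2 was raised by its high strains. The median library had 315 CPM of Hamp2, 633 of Hamp and 1581 of Ftl1, not scaled to length. Trf alone took 2.47% of all counts. Fractional deposited counts, in which reads were divided between rows, were found in all 27 libraries for Trf, Hamp, Hamp2 and Ftl1, in 18 for Fth1, in 14 for Hfe and in 0 for the other 4 genes. The median coefficient of variation within strains was largest for Tfrc, at 43.5%, and smallest for Fth1, at 6.10%.

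The hormone genes Hamp and Hamp2 lie next to each other in the mouse genome. Hamp (ENSMUSG00000050440) is at chr7:30942368-30944032 and Hamp2 (ENSMUSG00000056978) at chr7:30922372-30924681, both on the minus strand of GRCm38. Mature hepcidin is the end of the Hamp protein, and Hamp2 encodes a related peptide that is known to be a poor regulator of iron. The last 75 coding bases before the stop codon, which encode the mature peptide, are shown because they carry most of the differences between the 2 genes, and capitals mark the 14 bases that differ. They are at chr7:30942480-30942554 for Hamp and chr7:30922511-30922585 for Hamp2, minus strand, read from the GRCm38 transcripts of GENCODE M21.
Hamp: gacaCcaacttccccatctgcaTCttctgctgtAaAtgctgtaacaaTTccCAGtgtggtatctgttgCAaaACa
Hamp2: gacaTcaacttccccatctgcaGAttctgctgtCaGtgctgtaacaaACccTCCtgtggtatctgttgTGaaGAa

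The coding sequences were 93.57% identical (16 bases differed), and the longest run shared by the transcripts was 87 bases. Reads within such runs match both genes. The deposited counts of both genes were fractional in all 27 libraries, so reads were divided between them by an estimate, and the value of either gene is less certain than the sum of both.

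The 250 bases before each start, from the RefSeq promoter table for GRCm38.p6, are shown because they hold the places through which SMAD proteins and Stat3 are known to act on Hamp. They are chr7:30944030-30944279 for Hamp and chr7:30924182-30924431 for Hamp2, minus strand, written in the direction of transcription. The Hamp2 window lies within the GENCODE span of that gene, which reaches chr7:30924681, because the RefSeq start lies inside that span. Capitals mark 2 motifs searched on both strands: GGCGCC, the core of the BMP response element, with the 6 bases aligned to it in Hamp2, and TTCTTGGAA, the Stat3 site.
Hamp: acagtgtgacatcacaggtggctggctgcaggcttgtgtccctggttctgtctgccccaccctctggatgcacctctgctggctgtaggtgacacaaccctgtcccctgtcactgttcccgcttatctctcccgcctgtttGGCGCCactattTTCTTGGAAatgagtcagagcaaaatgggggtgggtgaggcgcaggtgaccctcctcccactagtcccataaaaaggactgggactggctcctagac
Hamp2: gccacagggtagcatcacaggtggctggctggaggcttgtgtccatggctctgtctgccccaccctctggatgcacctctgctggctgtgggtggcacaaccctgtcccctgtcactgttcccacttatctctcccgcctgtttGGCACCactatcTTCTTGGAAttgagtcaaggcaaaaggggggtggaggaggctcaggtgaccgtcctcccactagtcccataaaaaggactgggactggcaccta

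The 2 promoters were 89.72% identical, with 20 mismatches. GGCGCC began 109 bases before the Hamp start. At the aligned place in Hamp2, 106 bases before its start, the sequence was GGCACC, a change of G4A counted from 1 at the 5′ end of the motif. TTCTTGGAA was present in both, 97 bases before the start of Hamp and 94 before that of Hamp2. Of 32851 promoter windows in the table, 9.586% held GGCGCC and 0.365% held TTCTTGGAA. Of the 7 members in that table, Tfrc also held GGCGCC, 89 bases before 1 of its starts, and no member other than Hamp and Hamp2 held TTCTTGGAA. These are bases of the reference, which is C57BL/6J; the sequences of the other strains were not analysed here, and a match to a motif is a description and not a test of binding.

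Hamp was highest in NOD/ShiLtJ and lowest in NZO/HlLtJ, with a 10.2-fold range of strain means (adjusted p = 3.28e-07). In NOD/ShiLtJ, replicates 1, 2 and 3 had 1133, 1435 and 986 CPM, a mean of 1184 ± 229 (SD, n = 3). In NZO/HlLtJ they had 127.3, 127.2 and 93.4 CPM, a mean of 116.0 ± 19.5. All NOD/ShiLtJ libraries were above all NZO/HlLtJ libraries. CAST/EiJ was also low, with 303.4, 72.2 and 116.0 CPM in replicates 5, 4 and 1 (163.9 ± 123), and DBA/2J had 267.4, 238.9 and 327.9 CPM in replicates 4, 3 and 2 (278.1 ± 45.5). These 9 libraries of NZO/HlLtJ, CAST/EiJ and DBA/2J were the lowest of the 27. The other strain means were 1027 ± 507 in WSB/EiJ, 862 ± 151 in PWK/PhJ, 787 ± 168 in C57BL/6J, 720 ± 236 in 129S1/SvImJ and 627.7 ± 70.2 CPM in A/J. Between neighbours in this order, the drop from A/J to DBA/2J was called in the edgeR test (log2 difference 1.17 ± 0.37 SE, adjusted p = 0.0401; 10.9% of genes were called between these strains) and the other 7 neighbouring pairs were not.

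Against the mean of the other 8 strains, Hamp was lower in NZO/HlLtJ (log2 difference -2.37 ± 0.33 SE, adjusted p = 9.55e-06), in CAST/EiJ (-1.81 ± 0.32, 7.49e-05) and in DBA/2J (-0.95 ± 0.30, 0.0328). It was higher in NOD/ShiLtJ (1.40 ± 0.24, 0.000165), WSB/EiJ (1.17 ± 0.25, 0.000948), PWK/PhJ (0.88 ± 0.25, 0.00826) and C57BL/6J (0.74 ± 0.26, 0.0471). Of all genes, 27.6% were called in either direction in NZO/HlLtJ, 37.9% in CAST/EiJ, 13.3% in DBA/2J, 14.9% in NOD/ShiLtJ, 24.7% in WSB/EiJ, 34.2% in PWK/PhJ and 18.1% in C57BL/6J. The call in WSB/EiJ rested on replicate 3, at 1613 CPM beside 721 and 748: without it the log2 difference was 0.68 and adjusted p was 0.105. Without CAST/EiJ replicate 5, its highest library, the difference of that strain was -2.61. That library and PWK/PhJ replicate 1 were also the highest of their strains in the acute phase genes Saa1 (142 and 122 CPM) and Saa2 (139 and 185 CPM), whose part in the Hamp values was not tested. In WSB/EiJ, the library highest in Hamp, replicate 3, had 32.5 CPM of Saa1, and replicate 4, at 748 CPM of Hamp, had 487. The call in PWK/PhJ was lost without its replicate 1 (adjusted p = 0.0818), that in DBA/2J without any of its replicates (0.0729 to 0.183) and that in C57BL/6J in 21 of the 27 fits that leave out a library and with median-of-ratios scaling (0.74, 0.0508). The calls in C57BL/6J, DBA/2J and PWK/PhJ were also lost in a fit with Kupffer and endothelial marker levels as covariates. The log2 difference was then 0.51 in C57BL/6J (adjusted p = 0.482), -0.78 in DBA/2J (0.0640) and 0.38 in PWK/PhJ (0.461), and the calls in NZO/HlLtJ, CAST/EiJ, NOD/ShiLtJ and WSB/EiJ were kept. Hamp had r = 0.747 over the 9 strain means with the mean log2 level of the 5 tested erythroid markers. It had r = 0.716 with the stellate cell, 0.670 with the hepatocyte, 0.592 with the endothelial and 0.438 with the Kupffer cell markers. With the 1 lymphocyte marker tested r was 0.410. NZO/HlLtJ, lowest in Hamp, had the highest erythroid marker sum (24.1 ± 1.93 CPM) but a low mean log2 level (-0.886), so the 2 measures ranked it differently. The hepatocyte and stellate cell marker sums were lowest in CAST/EiJ and NZO/HlLtJ, and the part of these markers in the Hamp differences was not tested.

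Hamp2 fell into another order, with 3 strains far above the rest and a 29.4-fold range of strain means (adjusted p = 5.25e-12). DBA/2J replicates 4, 3 and 2 had 3286, 4697 and 5076 CPM (4353 ± 943), and PWK/PhJ replicates 3, 2 and 1 had 3620, 3714 and 5300.3 CPM (4211 ± 944). NZO/HlLtJ replicates 1, 2 and 3 had 1870.2, 2211 and 2265 CPM (2116 ± 214). The 9 libraries of these 3 strains were above the other 18, of which the highest was 764 CPM in C57BL/6J. The remaining means were 565 ± 173 CPM in C57BL/6J, 298.8 ± 66.3 in A/J, 280.9 ± 56.7 in NOD/ShiLtJ, 234.0 ± 83.2 in 129S1/SvImJ, 171.3 ± 61.2 in WSB/EiJ and 148.2 ± 104 in CAST/EiJ. In the edgeR test of neighbours in this order, PWK/PhJ was above NZO/HlLtJ (log2 difference 0.99 ± 0.37 SE, adjusted p = 0.0407; background 34.0%) and NZO/HlLtJ above C57BL/6J (1.90 ± 0.38, 0.000761; background 29.3%), and the other 6 pairs were not called.

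DBA/2J and NZO/HlLtJ were thus low in Hamp and high in Hamp2. In DBA/2J the log2 difference of Hamp2 from the other 8 strains was 3.20 ± 0.21 SE (edgeR adjusted p = 4.02e-11), in PWK/PhJ 3.15 ± 0.21 (1.94e-11) and in NZO/HlLtJ 2.03 ± 0.23 (3.91e-07). Hamp2 was lower in CAST/EiJ (-2.29 ± 0.34, 6.65e-06), WSB/EiJ (-2.05 ± 0.33, 4.54e-05), 129S1/SvImJ (-1.54 ± 0.32, 0.00113; background 18.4%), NOD/ShiLtJ (-1.25 ± 0.31, 0.00609) and A/J (-1.15 ± 0.30, 0.00714; background 27.5%). CAST/EiJ was low in both genes. The call in A/J was lost without its replicate 2 (adjusted p = 0.0581) and that in NOD/ShiLtJ without its replicate 3 (0.0673).

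The share of Hamp2 in the counts of both genes ran over most of its possible range between strains. It was 94.7% ± 1.21 (SD, n = 3) in NZO/HlLtJ, 93.9% ± 1.35 in DBA/2J and 82.9% ± 0.717 in PWK/PhJ. It was 48.1% ± 1.21 in CAST/EiJ, 41.5% ± 3.51 in C57BL/6J and 32.3% ± 7.31 in A/J, and lowest in 129S1/SvImJ (24.6% ± 5.49), NOD/ShiLtJ (19.2% ± 2.12) and WSB/EiJ (14.9% ± 4.36). In CAST/EiJ the levels of replicates 5, 4 and 1 differed by up to 4.20-fold for Hamp, yet the share was 46.7%, 48.8% and 48.8% in them.

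**Figure D1:**
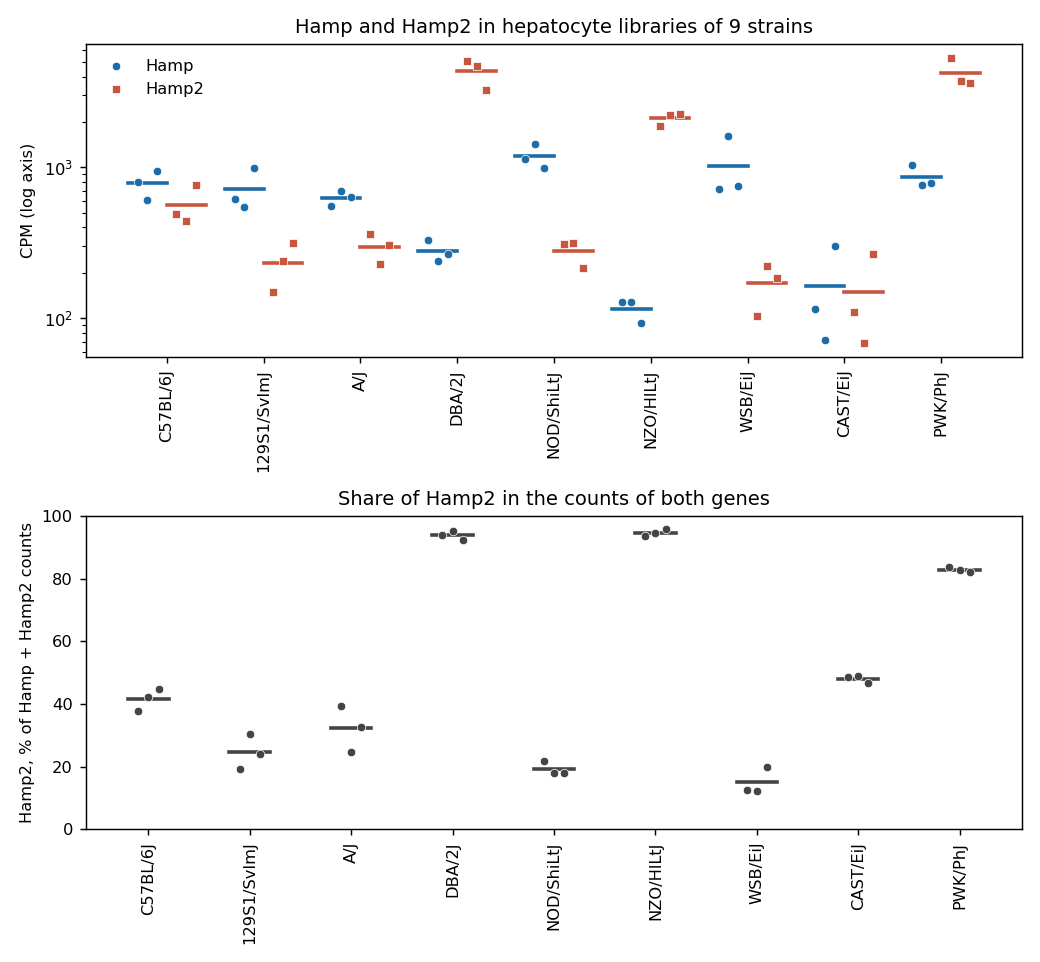
The upper plot gives Hamp (blue circles) and Hamp2 (red squares) in CPM on a log axis for each library, with bars at the strain means (n = 3); the lower plot gives Hamp2 as a percentage of the counts of both genes. DBA/2J, NZO/HlLtJ and PWK/PhJ sit between 1870.2 and 5300.3 CPM of Hamp2 and have shares above 82%, while Hamp in NZO/HlLtJ sits between 93.4 and 127.3 CPM.

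Counted together, the 2 genes gave 5074 ± 1094 CPM in PWK/PhJ, 4631 ± 963 in DBA/2J and 2231 ± 203 in NZO/HlLtJ, against 312 ± 226 in CAST/EiJ, a 16.3-fold range (edgeR adjusted p for a difference between strains = 3.50e-08). The other 5 strains had means between 927 and 1465 CPM. The sum was higher in PWK/PhJ (log2 difference from the other 8 strains 2.00 ± 0.23 SE, adjusted p = 1.66e-07) and DBA/2J (1.85 ± 0.23, 1.62e-06) and lower in CAST/EiJ (-2.53 ± 0.33, 1.40e-06). For NZO/HlLtJ the log2 difference of the sum was 0.66 ± 0.25 with adjusted p = 0.0522, opposite in sign to that of Hamp alone. In NOD/ShiLtJ (-0.0178, 0.996), WSB/EiJ (-0.34, 0.396) and C57BL/6J (-0.15, 0.764), where Hamp alone was called higher, the sum was not called.

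Within strains the 2 genes moved together. The deviations of log2 CPM from the strain mean had a Pearson correlation of 0.772 and a Spearman correlation of 0.592 over 27 libraries. Without the 2 libraries farthest from the median of Hamp, CAST/EiJ replicates 5 and 4, Pearson's r was 0.574. Over the 9 strain means r was -0.209. These correlations are descriptions: the deviations share a strain mean for every 3 libraries, and the reads of the 2 genes were divided by an estimate.

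**Figure D2:**
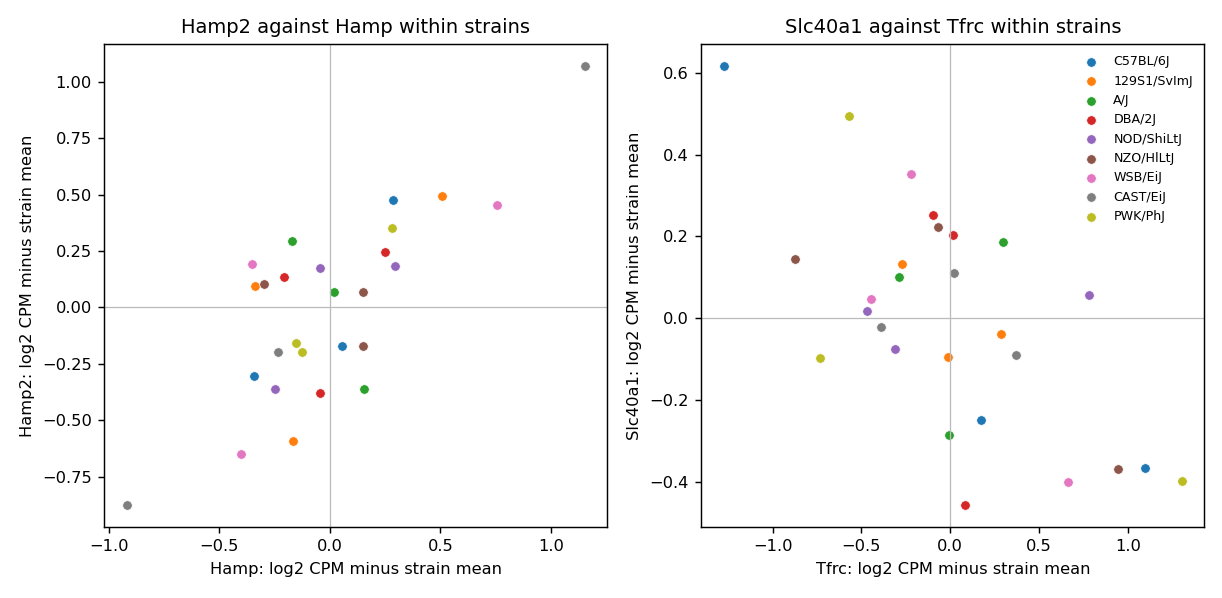
Each point is a library (n = 27), coloured by strain, at its log2 CPM minus the mean of its strain for Hamp and Hamp2 (left) and for Tfrc and Slc40a1 (right). Hamp2 follows Hamp with r = 0.772, the gray CAST/EiJ points lying at both ends, and Slc40a1 runs opposite to Tfrc with r = -0.664.

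Hfe, Tfr2 and Tfrc take part in sensing and taking up transferrin iron. Hfe (ENSMUSG00000006611, chr13:23702034-23710854, minus strand) encodes the protein mutated in the common form of haemochromatosis and is a cofactor for Hamp transcription. Its strain means lay in a narrow band with a 1.89-fold range (adjusted p = 6.31e-05). WSB/EiJ had 54.7, 66.1 and 73.6 CPM in replicates 2, 4 and 3, and 129S1/SvImJ had 29.3, 38.4 and 34.8 CPM in replicates 1, 2 and 3. The libraries of these strains did not overlap. C57BL/6J (63.4 ± 5.22 CPM) and PWK/PhJ (61.8 ± 10.7) were close to WSB/EiJ (64.8 ± 9.50), and NZO/HlLtJ (37.3 ± 2.99) and A/J (36.9 ± 3.46) were close to 129S1/SvImJ (34.2 ± 4.58), with NOD/ShiLtJ (52.3 ± 6.24), DBA/2J (49.2 ± 13.1) and CAST/EiJ (45.0 ± 2.55) between them. No neighbouring pair in this order was called.

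Hfe was called higher in WSB/EiJ (log2 difference 0.48 ± 0.12 SE, edgeR adjusted p = 0.00434), C57BL/6J (0.45 ± 0.12, 0.0113) and PWK/PhJ (0.41 ± 0.12, 0.0112). It was called lower in 129S1/SvImJ (-0.55 ± 0.13, 0.00467), A/J (-0.43 ± 0.13, 0.0176) and NZO/HlLtJ (-0.41 ± 0.13, 0.0219). Each of these 6 calls was lost when certain single libraries were left out: WSB/EiJ replicate 3, C57BL/6J replicate 4 or 2, PWK/PhJ replicate 1, 129S1/SvImJ replicate 1, A/J replicate 1 or 2, or any of NZO/HlLtJ (adjusted p between 0.0521 and 0.166). Hfe is also known in macrophages and endothelial cells. Its deviations within strains had r = 0.587 with the mean log2 level of the Kupffer markers and 0.628 with that of the endothelial markers (n = 27). With both marker levels as covariates, the calls in C57BL/6J, PWK/PhJ, 129S1/SvImJ and NZO/HlLtJ were lost (log2 difference 0.20, 0.10, -0.37 and -0.19, adjusted p = 0.473, 0.634, 0.0506 and 0.354) and those in WSB/EiJ and A/J were kept.

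Tfr2 (ENSMUSG00000029716, chr5:137569840-137587481, plus strand) encodes transferrin receptor 2, which hepatocytes use to sense transferrin iron. The strain means were 783 ± 62.8 CPM in WSB/EiJ, 729.5 ± 107 in C57BL/6J, 714.5 ± 153 in A/J, 638 ± 144 in DBA/2J, 557 ± 223 in PWK/PhJ, 507 ± 40.9 in NOD/ShiLtJ, 493 ± 71.2 in 129S1/SvImJ, 473 ± 49.6 in NZO/HlLtJ and 433.9 ± 40.0 in CAST/EiJ. In WSB/EiJ the libraries had 813, 710 and 824 CPM in replicates 2, 4 and 3, and in CAST/EiJ 426, 477 and 399 CPM in replicates 5, 4 and 1, with no overlap. The range was 1.80-fold (adjusted p = 0.00651), and no neighbouring pair was called. Tfr2 was called higher in WSB/EiJ (log2 difference 0.49 ± 0.16 SE, edgeR adjusted p = 0.0233) and lower in CAST/EiJ (-0.47 ± 0.17, 0.0307). The first call was lost without WSB/EiJ replicate 2 (0.0990) or 3 (0.114), and the second without any replicate of CAST/EiJ (0.0539 to 0.147). Over the 9 strain means, Tfr2 had r = 0.892 with the mean log2 level of the hepatocyte markers, whose part in these differences was not tested.

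Tfrc (ENSMUSG00000022797, chr16:32608920-32632794, plus strand), the transferrin receptor of most cells, was the scarcest gene of the set, with 192 counts in its lowest library, and the most variable among mice of a strain. The highest means were 41.6 ± 10.8 CPM in CAST/EiJ and 38.3 ± 16.7 in WSB/EiJ and the lowest was 9.08 ± 1.77 in 129S1/SvImJ, a 4.58-fold range (adjusted p = 0.0359). CAST/EiJ replicates 5, 4 and 1 had 52.6, 41.2 and 30.9 CPM and 129S1/SvImJ replicates 1, 2 and 3 had 7.41, 10.9 and 8.90 CPM. In C57BL/6J, replicates 4, 2 and 1 had 18.0, 34.2 and 6.56 CPM, a 5.21-fold spread within the strain, and in PWK/PhJ replicates 3, 2 and 1 had 10.8, 44.6 and 12.1 CPM. The C57BL/6J and PWK/PhJ libraries thus covered much of the range of the strain means. The spread within the strain was smaller in CAST/EiJ (1.70-fold), A/J, 129S1/SvImJ (1.47-fold) and DBA/2J (1.14-fold). DBA/2J had 30.7, 29.3 and 27.1 CPM in replicates 4, 3 and 2.

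The other Tfrc means were 25.4 ± 15.8 CPM in NZO/HlLtJ, 23.6 ± 12.1 in NOD/ShiLtJ, 22.5 ± 19.1 in PWK/PhJ, 19.6 ± 13.9 in C57BL/6J and 19.1 ± 3.85 in A/J, with no neighbouring pair called. Tfrc was called lower in 129S1/SvImJ (log2 difference -1.54 ± 0.45 SE, edgeR adjusted p = 0.0182) and higher in CAST/EiJ (0.93 ± 0.36, 0.0422). Both calls were fragile. The first was lost without any of its 3 replicates (adjusted p between 0.0564 and 0.109). The second was lost in 12 of the 27 fits that leave out a library, with DESeq2 (log2 difference 0.94, adjusted p = 0.0749), with upper-quartile scaling (0.87, 0.0610) and with the marker covariates (0.82, 0.188). The difference among all strains was lost in 6 of the 27 fits: without any 129S1/SvImJ replicate, WSB/EiJ replicate 4 or CAST/EiJ replicate 5 or 4 (adjusted p up to 0.104). The difference among strains was also lost with the marker covariates (0.0668).

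Within strains, Tfrc ran opposite to Slc40a1 and Fth1, which with Ftl1 are genes whose mRNAs are known to be regulated through iron-responsive elements, as that of Tfrc is. The deviations from the strain mean had r = -0.664 (Spearman -0.541) for Tfrc with Slc40a1 and -0.509 (-0.409) for Tfrc with Fth1 over 27 libraries, and r was -0.293 for Tfrc with Ftl1. Without PWK/PhJ replicate 2 and C57BL/6J replicate 1, the 2 farthest in Tfrc, r was -0.528 and -0.425. Genes outside this group had values within strains as large in size as Fth1, such as Lcn2 (0.540) and Atoh8 (-0.515). The part of iron regulation in these values was not tested. C57BL/6J replicate 1, the lowest of all 27 in Tfrc, had 238.3 CPM of Slc40a1 beside 130.7 and 120.5 in replicates 4 and 2, and 869 CPM of Fth1 beside 491 and 521. Over the 9 strain means, r was 0.087 for Slc40a1, 0.0 for Fth1 and -0.598 for Ftl1, whose row shares reads with a copy.

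Trf, Slc40a1 and Slc39a14 carry iron. Trf (ENSMUSG00000032554, chr9:103204001-103230444, minus strand) encodes the carrier protein of plasma, secreted by hepatocytes. A/J replicates 1, 2 and 3 had 39871, 38563 and 51074 CPM (43169.5 ± 6876), and all 3 were above the other 24 libraries, which 0.732% of genes did in A/J. WSB/EiJ followed at 32012 ± 5648 CPM, then DBA/2J (26391 ± 4559), PWK/PhJ (24962 ± 5674), C57BL/6J (24759 ± 3596), NOD/ShiLtJ (24232 ± 1161), 129S1/SvImJ (19754 ± 1404), CAST/EiJ (17522 ± 1666) and NZO/HlLtJ (16703 ± 1010). The range was 2.58-fold (adjusted p = 5.42e-05), and no neighbouring pair was called.

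Trf was higher in A/J (log2 difference 0.92 ± 0.14 SE, edgeR adjusted p = 3.57e-05), a call kept in every fit tried. It was also called higher in WSB/EiJ (0.44 ± 0.15, 0.0330) and lower in NZO/HlLtJ (-0.62 ± 0.16, 0.00672) and CAST/EiJ (-0.54 ± 0.16, 0.0101). The call in WSB/EiJ was lost without its replicate 2 (0.187) or 3 (0.183), with upper-quartile scaling (0.0726) or with no filter on low counts (0.120). That in NZO/HlLtJ was lost without its replicate 2 (0.0600) and with the marker covariates (-0.42, 0.0730), and that in CAST/EiJ without its replicate 4 (0.0788) or with no filter (0.0576). The hepatocyte marker sum was highest in the same strains, at 275807 ± 42809 CPM in A/J and 228975 ± 15022 in WSB/EiJ, and its lowest means were 115364 ± 7503 CPM in CAST/EiJ and 119631 ± 2092 in NZO/HlLtJ. Its part in the result was not tested. Trf and Tfr2 deviated together within strains, with r = 0.833 (Spearman 0.797) over 27 libraries and 0.764 without PWK/PhJ replicate 1 and DBA/2J replicate 3. Other pairs had values about as large: 0.922 for Tfr2 with Tmprss6, -0.909 for Tfr2 with Fbxl5 and 0.823 for Trf with Hjv. With the endothelial marker level, r within strains was 0.794 for Tfr2 and 0.578 for Trf. The relation was thus not particular to this pair.

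Slc40a1 (ENSMUSG00000025993, chr1:45908068-45926523, minus strand) encodes ferroportin, the target of hepcidin and the known cellular exporter of iron, which Kupffer cells also use. WSB/EiJ replicates 2, 4 and 3 had 357, 262 and 442 CPM (353.6 ± 90.0) and A/J replicates 1, 2 and 3 had 233.5, 305.4 and 324.0 CPM (287.6 ± 47.8). NZO/HlLtJ was lowest, at 123.4, 86.3 and 130.3 CPM in replicates 1, 2 and 3 (113.3 ± 23.6). The NZO/HlLtJ libraries did not overlap those of WSB/EiJ or A/J. Means of the other strains were between 139.3 ± 9.97 CPM in CAST/EiJ and 203.4 ± 66.0 in PWK/PhJ, and no neighbouring pair was called in a 3.12-fold range (adjusted p = 5.60e-05).

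Ferroportin mRNA was called higher in WSB/EiJ (log2 difference 1.08 ± 0.17 SE, edgeR adjusted p = 4.19e-05) and A/J (0.74 ± 0.18, 0.00314) and lower in NZO/HlLtJ (-0.77 ± 0.20, 0.00705). The WSB/EiJ call for Slc40a1 was kept with the Kupffer and endothelial markers as covariates (1.12, 5.81e-06), and those in A/J (0.49, 0.109) and NZO/HlLtJ (-0.51, 0.111) were not. The NZO/HlLtJ call was also lost without its replicate 2 (0.0915). The sum of the Kupffer markers was 208.9 ± 78.7 CPM in A/J, 107.2 ± 32.1 in WSB/EiJ and 69.2 ± 29.7 in NZO/HlLtJ. Over the 9 strain means, Slc40a1 had r = 0.885 with the mean log2 level of the hepatocyte markers, 0.702 with the stellate cell markers, 0.358 with the Kupffer markers and 0.303 with the endothelial markers. The part of the hepatocyte and stellate cell markers in these differences was not tested.

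Slc39a14 (ENSMUSG00000022094, chr14:70303469-70351425, minus strand) encodes a transporter that brings iron not bound to transferrin into hepatocytes. WSB/EiJ replicates 2, 4 and 3 had 422, 309 and 374 CPM (368.1 ± 56.6) and PWK/PhJ replicates 3, 2 and 1 had 124, 115 and 156 CPM (131.7 ± 21.5). The libraries of these strains did not overlap. Between them lay A/J (321.3 ± 86.2), C57BL/6J (279.3 ± 86.4), DBA/2J (258.0 ± 31.5), CAST/EiJ (217.9 ± 51.1), NZO/HlLtJ (180.4 ± 43.2), NOD/ShiLtJ (165.4 ± 12.9) and 129S1/SvImJ (143.0 ± 34.4), a 2.79-fold range (adjusted p = 3.91e-05) with no neighbouring pair called. Slc39a14 was higher in WSB/EiJ (log2 difference 0.86 ± 0.17 SE, edgeR adjusted p = 0.000384) and lower in PWK/PhJ (-0.81 ± 0.19, 0.00205). It was also called higher in A/J (0.64 ± 0.17, 0.00689) and lower in 129S1/SvImJ (-0.67 ± 0.19, 0.0159). Without A/J replicate 3, at 420 CPM, the A/J difference was 0.39 (adjusted p = 0.204), and the 129S1/SvImJ call was lost without its replicate 1 (0.131) or 2 (0.116). With the Kupffer and endothelial marker covariates the PWK/PhJ difference was larger, at -1.44 (edgeR adjusted p = 5.25e-06). Slc39a14 had r = 0.729 with the hepatocyte marker level over the 9 strain means, whose part was not tested.

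**Figure D3:**
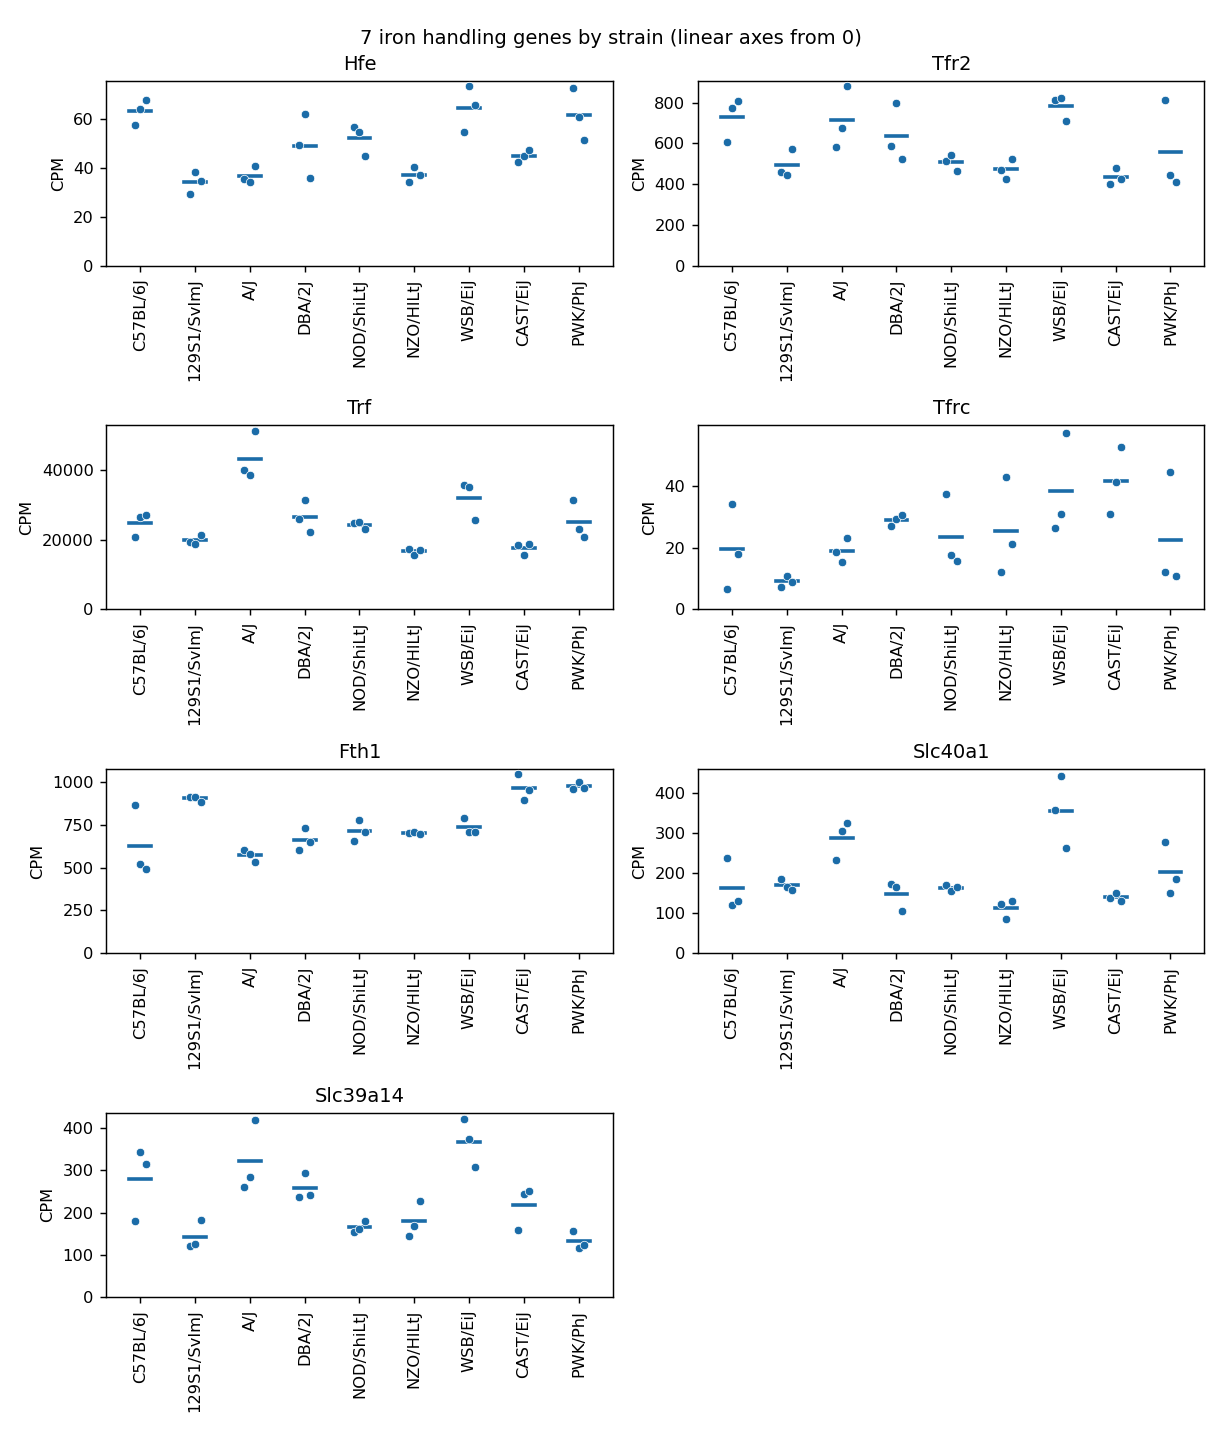
CPM of 7 genes in each library on linear axes from 0, with bars at the strain means (n = 3 per strain). All 3 A/J libraries of Trf lie above the other 24, Tfrc spreads from 6.56 to 34.2 CPM within C57BL/6J, and Fth1 spreads 1.77-fold within C57BL/6J and less in the other strains.

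Fth1 and Ftl1 encode the chains of ferritin, the shell that stores iron; the heavy chain oxidises iron on entry and the light chain aids its deposition. Fth1 (ENSMUSG00000024661, chr19:9980598-9985098, plus strand) had the narrowest range of the set, 1.71-fold (adjusted p = 0.000867). PWK/PhJ had 968, 1001 and 962 CPM in replicates 3, 2 and 1, CAST/EiJ 953, 898 and 1050.3 CPM in replicates 5, 4 and 1, and A/J 604, 577 and 536 CPM in replicates 1, 2 and 3. The A/J libraries lay below those of both strains. The means were 977 ± 21.4 CPM in PWK/PhJ, 967 ± 77.0 in CAST/EiJ, 905 ± 18.0 in 129S1/SvImJ, 737 ± 44.9 in WSB/EiJ, 717 ± 62.0 in NOD/ShiLtJ, 703 ± 6.59 in NZO/HlLtJ, 662 ± 66.2 in DBA/2J, 627 ± 210 in C57BL/6J and 572 ± 34.2 in A/J, with no neighbouring pair called. Fth1 was called higher in PWK/PhJ (log2 difference 0.43 ± 0.12 SE, edgeR adjusted p = 0.00598) and CAST/EiJ (0.41 ± 0.12, 0.00742) and lower in A/J (-0.44 ± 0.13, 0.0123). The CAST/EiJ call was lost without its replicate 1 (0.0750) and the A/J call without its replicate 3 (0.0845).

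The row of Ftl1 (ENSMUSG00000050708, chr7:45457944-45459884, minus strand) had the largest strain difference of the set, and it has to be read with Ftl1-ps1 (ENSMUSG00000062382, chr13:74399694-74407346, plus strand). Ftl1-ps1 is a copy named as a pseudogene but annotated as protein coding in GENCODE M21. The coding sequences were 99.64% identical (2 of 549 bases differed) with a longest shared run of 467 bases. The last 90 coding bases before the stop codon are shown because they hold both coding differences, in capitals. The aligned transcripts had 4 mismatches and 86 gap columns in all. The bases shown are at chr7:45458110-45458199, minus strand, and chr13:74407063-74407152, plus strand, of GRCm38.
Ftl1: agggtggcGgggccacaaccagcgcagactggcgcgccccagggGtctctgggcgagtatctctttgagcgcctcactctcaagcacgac
Ftl1-ps1: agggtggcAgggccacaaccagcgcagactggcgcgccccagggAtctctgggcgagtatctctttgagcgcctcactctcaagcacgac

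In CAST/EiJ, Ftl1 had 11.5, 10.2 and 12.5 CPM in replicates 5, 4 and 1 (11.4 ± 1.12), below all other 24 libraries, which 3.82% of genes were in that strain. Ftl1-ps1 had 1658, 1752 and 1904 CPM in the same libraries (1771 ± 124). In WSB/EiJ the counts were split almost evenly, with 695, 887 and 636 CPM of Ftl1 and 642, 796 and 590 CPM of Ftl1-ps1 in replicates 2, 4 and 3. Ftl1-ps1 was at 12.8 ± 1.32 CPM in PWK/PhJ and between 2.67 and 4.02 CPM in the means of the other 6 strains. Its share of the counts of both was 99.4% ± 0.0553 in CAST/EiJ, 47.8% ± 0.449 in WSB/EiJ and at most 0.787% in the other strains. The deposited counts of both rows were fractional in all 27 libraries. Whether reads of each strain were aligned to the C57BL/6J reference or to a genome of that strain is not given in the sources used here, so a strain difference in the divided rows cannot be told apart from a difference in how reads were assigned.

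For Ftl1 alone the range was 170.2-fold, the log2 difference of CAST/EiJ was -6.94 ± 0.23 SE (edgeR adjusted p = 5.00e-18), and WSB/EiJ was above CAST/EiJ by 6.02 ± 0.23 (adjusted p = 6.54e-16; background 36.6%). Ftl1 was also called higher in NZO/HlLtJ, 129S1/SvImJ, NOD/ShiLtJ, PWK/PhJ, DBA/2J and C57BL/6J, by 0.76 to 1.40 on the log2 scale. The low CAST/EiJ value is part of the mean of the other 8 in each of these comparisons. How far the calls rest on it was not tested. The C57BL/6J difference was 0.46 without its replicate 1 (adjusted p = 0.0146). With the counts of both rows added together the strain means were 1947 ± 71.7 CPM in NZO/HlLtJ, 1927 ± 34.2 in 129S1/SvImJ, 1783 ± 125 in CAST/EiJ, 1658 ± 194 in PWK/PhJ, 1655 ± 63.9 in NOD/ShiLtJ, 1557 ± 166 in DBA/2J, 1415 ± 238 in WSB/EiJ, 1308 ± 422 in C57BL/6J and 962 ± 122 in A/J. The sum had a 2.02-fold range (adjusted p = 0.000934), was lower in A/J (-0.77 ± 0.14, 0.000344) and higher in NZO/HlLtJ (0.37 ± 0.13, 0.0363), and was not called in CAST/EiJ (0.23 ± 0.13, 0.179).

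**Figure D4:**
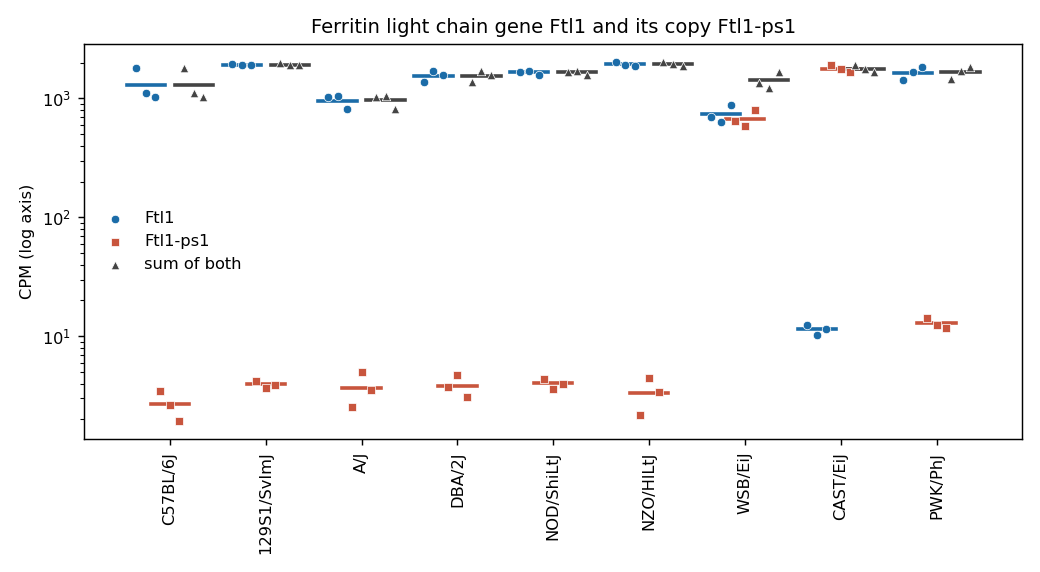
CPM on a log axis of Ftl1 (blue circles), Ftl1-ps1 (red squares) and their sum (gray triangles) in each library, with bars at the strain means (n = 3). In CAST/EiJ the 2 rows change places, at 11.4 and 1771 CPM, and in WSB/EiJ they are nearly equal, while the mean sums of the 9 strains lie between 962 and 1947 CPM.

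A/J had the lowest mean in Fth1 and in the summed light chain counts. For Fth1, C57BL/6J replicates 4 and 2 (491 and 521 CPM) were below all A/J libraries, and replicate 1 (869 CPM) raised the C57BL/6J mean. Within strains the 2 ferritin rows deviated together, with r = 0.785 (Spearman 0.651) over 27 libraries. Without C57BL/6J replicates 1 and 4, r was 0.536. C57BL/6J replicate 1 had 1789 CPM of Ftl1 beside 1019 and 1108 in replicates 4 and 2. This is the library with high Fth1 and Slc40a1 and low Tfrc above. It also stood apart in Pcbp2 (110.3 CPM beside 63.9 and 71.6) and in its TMM factor (1.02 beside 0.863 and 0.85). The cause was not tested.

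By strain, WSB/EiJ had 6 of the 10 genes called higher (Hamp, Hfe, Tfr2, Trf, Slc40a1 and Slc39a14; 15.5% of all genes) and 1 lower (Hamp2; 9.25%). CAST/EiJ had 2 higher (Tfrc and Fth1; 20.1%) and 5 lower (Hamp, Hamp2, Tfr2, Trf and Ftl1, the last in the divided row; 17.8%). NZO/HlLtJ had 4 lower (Hamp, Hfe, Trf and Slc40a1; 12.9%) and 2 higher (Hamp2 and Ftl1; 14.8%). PWK/PhJ had 5 higher (19.4%) and 1 lower (14.8%), A/J had 3 higher (15.9%) and 3 lower (11.6%), and 129S1/SvImJ had 1 higher (10.5%) and 4 lower (7.86%). C57BL/6J had 3 higher (11.6%) and 0 lower (6.5%), DBA/2J 2 higher (9.5%) and 1 lower (3.78%), and NOD/ShiLtJ 2 higher (9.2%) and 1 lower (5.72%). Of the 46 calls, 7 belong to Ftl1, 6 of them higher; 39 of the 81 combinations of the other genes were called, or 48.1%. The 9 comparisons share libraries and are not independent.

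Single libraries decided many of these counts. Of the 6 genes higher in WSB/EiJ, 2 (Slc40a1 and Slc39a14) were still called without its replicate 3. Of the 4 lower in NZO/HlLtJ, 1 (Hamp) was called without replicate 2, and of the 4 lower in 129S1/SvImJ, 1 (Hamp2) without replicate 1 and 2 without replicate 2. Without CAST/EiJ replicate 1, 0 of its 2 higher calls were left, and without replicate 4, 3 of its 5 lower calls. PWK/PhJ kept 3 of 5 higher calls without replicate 1, A/J 1 of 3 lower calls without replicate 2, and C57BL/6J 1 of 3 higher calls without replicate 2 or 4. The lower calls of DBA/2J (Hamp) and NOD/ShiLtJ (Hamp2) were lost without any 1 of the DBA/2J replicates and without NOD/ShiLtJ replicate 3.

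Of 56 other genes of iron metabolism in 5 lists, 55 were tested and 45 differed between strains, or 81.8% against 74.2% of all genes; Ftmt, the mitochondrial ferritin gene, had no counts. Of 12 genes through which BMP ligands and hemojuvelin regulate Hamp, 9 differed, beside 74.2% of all genes. The ligand Bmp6 was highest in C57BL/6J (2.38 ± 0.929 CPM) and lowest in NZO/HlLtJ (0.660 ± 0.282; edgeR adjusted p = 0.0123), and the ligand Bmp2 was highest in PWK/PhJ (14.0 ± 8.98 CPM) and lowest in NZO/HlLtJ (3.88 ± 2.16; 0.0342). The PWK/PhJ mean of Bmp2 held 24.4 CPM in replicate 1 beside 9.29 and 8.35 in replicates 3 and 2. Both ligands are known as products of liver endothelial cells, and the endothelial marker sum was also highest in PWK/PhJ (441 ± 311 CPM) and lowest in NZO/HlLtJ (82.6 ± 25.1). With the marker covariates the Bmp2 difference turned, from 1.16 (edgeR adjusted p = 0.0112) to -0.78 (0.00643) in PWK/PhJ and from -0.93 (0.101) to 0.22 (0.483) in NZO/HlLtJ. Hjv, which encodes hemojuvelin, the BMP co-receptor of hepatocytes, ran from 88.1 ± 20.0 CPM in DBA/2J to 44.5 ± 1.76 in 129S1/SvImJ (0.000441), and its partner Neo1 from 25.6 ± 4.10 CPM in DBA/2J to 13.6 ± 2.56 in PWK/PhJ (0.000973). Tmprss6, which cleaves hemojuvelin, was not called (adjusted p = 0.116).

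Of 6 genes that BMP-SMAD signalling is known to switch on, 4 differed between strains, or 66.7% against 74.2% of all genes. These 4 (Id1, Smad6, Smad7 and Atoh8) were called lower in NZO/HlLtJ, where 12.9% of all genes were called lower. NZO/HlLtJ was the lowest strain in the Hamp row, but not in the sum of Hamp and Hamp2, whose log2 difference there was 0.66 (edgeR adjusted p = 0.0522). The list's median log2 difference in NZO/HlLtJ was -1.07, against 0.02 for all genes. Id2 and Bambi were not called. Id1, an inhibitor of transcription factors, had 1.35, 0.456 and 0.449 CPM in NZO/HlLtJ replicates 1, 2 and 3 and 7.88 ± 5.95 CPM in C57BL/6J. Its log2 difference in NZO/HlLtJ was -1.93 ± 0.59 SE (edgeR adjusted p = 0.0171). Smad7 and Smad6 encode inhibitory SMAD proteins. Smad7 had a mean of 2.43 ± 1.08 CPM in NZO/HlLtJ (-1.66 ± 0.37, 0.00181), with 11.2 ± 5.34 in A/J, and Smad6 had 2.05 ± 0.301 CPM (-0.72 ± 0.26, 0.0426), with 6.38 ± 1.85 in PWK/PhJ. Atoh8, a transcription factor known to act on the Hamp promoter, had 5.09 ± 0.754 CPM in NZO/HlLtJ (-1.41 ± 0.27, 0.000356) and 22.5 ± 1.99 in 129S1/SvImJ.

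With the Kupffer and endothelial marker levels as covariates, Id1 (log2 difference -2.36, adjusted p = 0.0219), Smad7 (-1.61, 0.0111) and Atoh8 (-1.57, 0.00104) stayed lower in NZO/HlLtJ, and Smad6 (-0.51, 0.307) and Bmp6 (-0.32, 0.570) were no longer called. The difference of Smad6 among strains was also lost with the covariates (0.0830). Hamp was also low in CAST/EiJ and DBA/2J. In CAST/EiJ, 1 of the 6 targets was called lower (Id1, -1.45 ± 0.57, edgeR adjusted p = 0.0481), beside 17.8% of all genes, and with the covariates the difference was -1.53 and no longer called (0.0711). DBA/2J had 0 of the 6 called in either direction, beside 13.3% of all genes. Over the 9 strain means, log2 CPM of Hamp had r = 0.857 with Smad7, 0.820 with Id1, 0.631 with Atoh8, 0.536 with Bambi, 0.365 with Smad6 and 0.033 with Id2. For Hamp2 these values were -0.470, -0.284, -0.614, 0.150, 0.053 and 0.516 in the same order. Within strains, r of Hamp with the 6 genes was between 0.176 and 0.489 over 27 libraries. All of these values come from the same libraries.

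**Figure D5:**
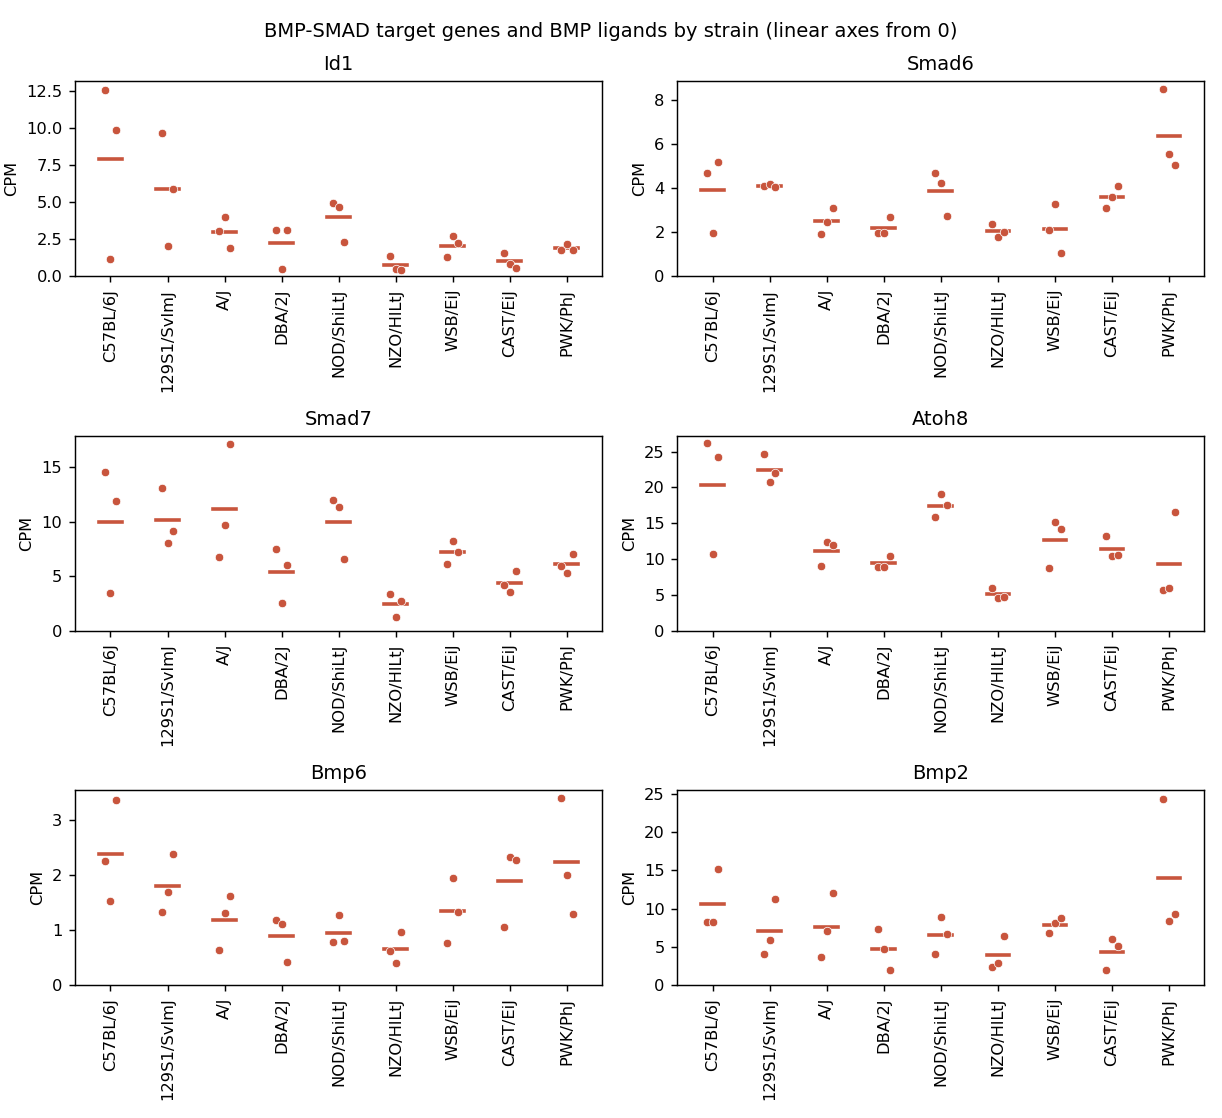
CPM of 4 BMP-SMAD target genes (Id1, Smad6, Smad7 and Atoh8) and of the ligands Bmp6 and Bmp2 in each library on linear axes from 0, with bars at the strain means (n = 3). NZO/HlLtJ has the lowest mean in all 6, such as 5.09 CPM for Atoh8 and 0.752 CPM for Id1.

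Of 10 genes of the inflammatory control of Hamp, 8 differed between strains (80.0%, against 74.2% of all genes). The acute phase genes Saa1, Saa2 and Lcn2 had their highest means in WSB/EiJ, with an SD above the mean in each: 181 ± 265 CPM for Saa1, 126 ± 187 for Saa2 and 228.4 ± 297 for Lcn2. WSB/EiJ replicate 4 was far above the other 2 libraries of that strain, with 487 CPM of Saa1 beside 23.7 and 32.5 in replicates 2 and 3, 342 of Saa2 beside 13.2 and 21.7, and 571 of Lcn2 beside 50.8 and 63.4. Single libraries also stood above the others in CAST/EiJ, where replicates 5, 4 and 1 had 142, 8.28 and 3.04 CPM of Saa1 and 139, 7.25 and 3.55 of Saa2, and in PWK/PhJ, where replicate 1 had 122 CPM of Saa1 and 185 of Saa2 and replicate 2, the next highest, had 27.1 and 40.6. The lowest means of the 3 genes were 7.13 ± 1.59 CPM in 129S1/SvImJ for Saa1, 2.65 ± 0.390 in 129S1/SvImJ for Saa2 and 0.379 ± 0.325 in NZO/HlLtJ for Lcn2. The edgeR adjusted p was 0.0160 for Saa1, 0.000736 for Saa2 and 4.17e-09 for Lcn2. Saa1 and Saa2 are close paralogs with fractional counts in 17 libraries. Il6ra, which encodes the receptor of interleukin 6, ran from 52.5 ± 16.2 CPM in A/J to 18.7 ± 2.55 in NOD/ShiLtJ (0.00390). Hamp and Il6ra had r = 0.254 over the 9 strain means. Of the other genes of this list, Stat3 had r = -0.838 with Hamp and Lcn2 had 0.758. The rest had 0.445 (Il6st), 0.372 (Crp), 0.289 (Jak1), -0.211 (Socs3), 0.208 (Saa1), 0.172 (Saa2) and 0.012 (Jak2). No cause of these values was tested.

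Of 20 further genes of iron, haem and copper-oxidase transport, 19 differed (95.0%, against 74.2% of all genes). Steap3 and Steap2 encode reductases that turn ferric into ferrous iron. CAST/EiJ had 3.84 ± 0.216 CPM of Steap3 beside 80.0 ± 16.3 in WSB/EiJ (edgeR log2 difference of CAST/EiJ -3.62 ± 0.19 SE, adjusted p = 6.99e-14) and 0.611 ± 0.230 CPM of Steap2 beside 13.2 ± 0.949 in C57BL/6J (-3.85 ± 0.24, 2.83e-12). Hpx, which encodes the haem carrier hemopexin, ran from 11184 ± 3559 CPM in PWK/PhJ to 2780 ± 611 in 129S1/SvImJ. Cd163, the haemoglobin scavenger receptor of macrophages, ran from 9.34 ± 3.48 CPM in A/J to 1.59 ± 0.519 in NZO/HlLtJ, strains with Kupffer marker sums of 208.9 and 69.2 CPM. Its calls in A/J (1.37 ± 0.35, edgeR adjusted p = 0.00503) and NZO/HlLtJ (-1.49 ± 0.45, 0.0163) were lost with the marker covariates (0.45, 0.258 and -0.55, 0.232), as was the call in C57BL/6J (1.29, 0.0109, against -0.01, 1.0), and Cd163 was then called lower in PWK/PhJ (-1.48, 0.00147). Of the 20 genes, 8 were called higher in A/J (15.9% of all genes), 7 in WSB/EiJ (15.5%), 6 in PWK/PhJ (19.4%), 6 in DBA/2J (9.5%), 4 in C57BL/6J (11.6%), 3 in 129S1/SvImJ (10.5%), 1 in NZO/HlLtJ (14.8%), 1 in NOD/ShiLtJ (9.2%) and 0 in CAST/EiJ (20.1%). Called lower were 6 in NZO/HlLtJ (12.9%), 4 in CAST/EiJ (17.8%), 3 in PWK/PhJ (14.8%), 2 in 129S1/SvImJ (7.86%), 1 in A/J (11.6%), 1 in WSB/EiJ (9.25%) and 0 in DBA/2J (3.78%), NOD/ShiLtJ (5.72%) and C57BL/6J (6.5%).

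Of 7 tested genes of iron sensing, ferritin turnover and haem breakdown, 5 differed (71.4%, against 74.2% of all genes). Ncoa4, whose product delivers ferritin to lysosomes, ran from 117.3 ± 13.4 CPM in DBA/2J to 8.71 ± 4.65 in WSB/EiJ (edgeR adjusted p = 3.07e-12). Its counts were fractional in all 27 libraries, as were those of the iron chaperone gene Pcbp2 (101.4 ± 1.39 CPM in 129S1/SvImJ, 60.8 ± 9.27 in A/J, 0.00995), so both are uncertain. Hmox1, which encodes the enzyme that breaks down haem, ran from 13.2 ± 2.61 CPM in A/J to 3.65 ± 1.04 in 129S1/SvImJ (2.57e-05), strains with Kupffer marker sums of 208.9 and 60.5 CPM. With the marker covariates its log2 difference went from 1.11 to 0.51 in A/J (edgeR adjusted p = 0.0436) and from -0.97 to -0.46 in 129S1/SvImJ, where the call was lost (0.0839). Fbxl5, whose product marks iron regulatory protein 2 for degradation, ran from 25.7 ± 1.39 CPM in 129S1/SvImJ to 17.2 ± 0.404 in WSB/EiJ (0.0273).

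For each member the 2 genes most like it across the 27 libraries, of 10490 compared, were found by Pearson's r of log2 CPM, which strain means and depth shared by the libraries can also raise. Tfr2 was most like F2 (0.951), which encodes prothrombin, and Col18a1 (0.950). Trf was most like Itfg1 (0.935) and Rnf128 (0.922), Slc39a14 like Slc9a8 (0.895) and Pcsk7 (0.891), and Fth1 like Eri3 (0.873) and Timm44 (0.856). Ftl1 was most like Iigp1 (0.977) and Rpl7a (0.969), which also had their lowest means in CAST/EiJ, at 0.507 and 18.8 CPM. Hamp was most like Laptm4b (0.833) and Apom (0.827), and Hamp2 like A4gnt (0.837) and Lix1l (0.820). Hfe was most like Pomt1 (0.862) and Saraf (0.832), and Slc40a1 like Plbd2 (0.826) and Ptprk (0.815). Tfrc had the weakest leading values, 0.788 with Ints3 and 0.716 with Acnat2.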

How the data were processed

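The values deposited by the authors are estimated counts (also named expected counts) per Ensembl gene for the 27 libraries, in which reads matching several genes were divided and which were not scaled to depth; 11.1% of values were not whole (tolerance 1e-06), and all columns matched a sample (0 columns of other samples). Per the labels' protocols, polyadenylated RNA was made into libraries with a TruSeq kit whose name states no strand protocol. The submitters' processing notes name GRCm38, mm10, FastQC 0.11.5 and DESeq2 without a role; the aligner, the counting program and the annotation are not given in the sources used here. Counts were rounded, which changed totals by at most 0.000261%. GENCODE M21 named 42462 of 43346 IDs; Hjv is listed there under an older symbol.

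Tests used edgeR 4.0.16 in R 4.3.3 (limma 3.58.1): filterByExpr with strain as group, TMM scaling (factors from 0.722 to 1.23), glmQLFit and glmQLFTest on all 27 libraries with strain as factor, and Benjamini-Hochberg adjustment over 14482 genes within each comparison, called under 0.05. The comparisons were all strains together, each strain against the mean of the other 8, and each of 36 pairs, of which neighbours in a member's order are reported. Standard errors came from the F statistic; the script was tested on simulated data. Correlations were computed on log2 CPM (prior count 2). P-values rest on the spread between the 3 libraries within strains, estimated for each gene and shared by all strains. They do not reflect the spread of the named strain alone. Promoters were matched for 7 of 10 members; those of Trf, Slc40a1 and Slc39a14 were not analysed here.

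Alternatives were DESeq2 1.42.0, median-of-ratios and upper-quartile scaling, no filter, a mean of at least 10 counts, a replicate block, Kupffer and endothelial marker covariates, and leaving out each library; counting paralogs together was added after seeing the data. The genes named are all members, the 2 genes most similar to each member, and 4 genes of each pathway list. Those 4 had the largest strain range among genes called and averaging at least 1 CPM. Tmprss6, Ftmt, Id2, Bambi, Il6st, Jak1, Jak2, Stat3, Socs3 and Crp were named after their values were seen. Members and lists were chosen with earlier results of these data known.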

Additional observations from a re-analysis of the deposited data

How the results depend on the processing

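The 3 counts kept within 1.5 times of the reported values under every alternative run. Members with a strain effect numbered 10 as reported, 9 with the replicate block and with marker covariates, and between 9 and 10 when leaving out a library. Calls of a strain against the other 8 numbered 46, with a range of 38 (marker covariates) to 48 (DESeq2) and of 41 to 48 when leaving out a library. Calls among the pathway lists numbered 45, with a range of 39 (replicate block, marker covariates) to 48 (DESeq2) and of 41 to 47 when leaving out a library. The block gave 9, 44 and 39. Replicate numbers did not pair the libraries: residuals of libraries with the same number had a mean correlation of 0.010 over 76 pairs, 17 of them over 0.1, and those with different numbers a mean of -0.003 over 248 pairs. Calls lost under the block were Tfr2 in CAST/EiJ (adjusted p = 0.213) and WSB/EiJ (0.0546), Tfrc in CAST/EiJ (0.235) and among strains (0.0960), Trf in CAST/EiJ (0.0927) and, among calls printed for list genes, Smad6 in NZO/HlLtJ (0.0715), Id1 in CAST/EiJ (0.0727) and Fbxl5 among strains (0.0882). DESeq2 (0.0749) and upper-quartile scaling (0.0610) lost Tfrc in CAST/EiJ, and median-of-ratios scaling lost Hamp in C57BL/6J (0.0508).

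Counting Hamp with Hamp2, chosen after seeing the data, turned the direction of the Hamp log2 difference in DBA/2J (1.85), NZO/HlLtJ (0.66), WSB/EiJ (-0.34), C57BL/6J (-0.15) and NOD/ShiLtJ (-0.0178). Counting Ftl1 with Ftl1-ps1 turned that of Ftl1 in C57BL/6J (-0.27) and CAST/EiJ (0.23) and ended 4 further Ftl1 calls, in PWK/PhJ (adjusted p = 0.577), DBA/2J (0.997), 129S1/SvImJ (0.0600) and NOD/ShiLtJ (0.655). These follow from the added rows themselves. Tests of neighbouring strains were run in the reported fit only. The lowest count of a member in a library was 192, for Tfrc; list genes near 1 CPM, such as Bmp6 and Id1 in NZO/HlLtJ, rest on fewer counts.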
